A study of Mus musculus with 6 samples.

Results

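The 10 genes followed here make phosphatidylcholine in mouse liver. They were chosen by name, as the genes of choline uptake, of the CDP-choline and CDP-ethanolamine pathways and of the methylation route, and all 10 were found among the 21899 genes of the deposited table. Liver polyA RNA had been sequenced from wild-type (WT) C57BL6J mice kept for 6 weeks on a diet without methionine and choline (MCD, 3 libraries) or on a diet sufficient in both (MCS, 3 libraries). Age and sex are not given in the sources used here, and the labels do not say that each library is a separate mouse. The p-values then reflect the spread of these 6 samples alone, which may be technical. Libraries are written as MCS-1 to MCS-3 and MCD-1 to MCD-3, and values per library stand in that order.

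Phosphatidylcholine is the main phospholipid of cell membranes and of the surface of lipoproteins. Most cells make it from choline, which is taken up, phosphorylated by choline kinase, activated to CDP-choline by a cytidyl transferase and joined to diacylglycerol by a phosphotransferase. The liver also methylates phosphatidylethanolamine with S-adenosylmethionine, through Pemt, and phosphatidylethanolamine is made by the parallel CDP-ethanolamine pathway. The MCD diet withholds choline, the substrate of the first route, and methionine, the methyl source of the second.

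Total counts were 16615469 to 21322771 per library, and 12599 genes were tested with edgeR's quasi-likelihood test after TMM scaling, which sets the bulk of genes to no change (median log2 fold change of all tested genes 0.01). A gene was called at an adjusted p under 0.05, and 24.7% of tested genes were called, 14.8% as higher and 9.97% as lower on the MCD diet. Levels are in CPM, at library sizes scaled by TMM, as mean ± SD over 3 libraries. Changes are given on the log2 scale, MCD relative to MCS, ± SE. Markers of other cells differed between the diets. Summed over 8 markers, recruited macrophage genes were at 158 to 159 CPM in the MCS and 1257 to 3351 CPM in the MCD libraries, and 8 of 8 rose. Summed over 8 markers, stellate cell and fibroblast genes were at 160 to 283 CPM in the MCS and 346 to 1646 CPM in the MCD libraries, and 4 of 8 rose. Among 4 markers of dividing cells (0.938 to 1.81 CPM on MCS, 8.05 to 19.6 CPM on MCD) all 4 rose, and among 5 cholangiocyte markers (7.12 to 8.63 CPM on MCS, 17.5 to 41.4 CPM on MCD) 4 rose. For 10 hepatocyte markers the sum was 90576 to 115523 CPM in the MCS and 77019, 96194 and 57936 CPM in MCD-1 to MCD-3, and 3 of 10 fell. Alb alone made up 53346 of the 91039 CPM in MCS-1 and 43222 of the 57936 CPM in MCD-3. Kupffer cell (300 to 380 against 260 to 467 CPM) and endothelial markers (75.6 to 290 against 45.9 to 224 CPM) overlapped between the diets, with 1 of 6 Kupffer cell markers higher and 2 lower past the threshold and 0 of 6 endothelial ones. T and NK cell markers, 2 of 4 of which rose, summed to at most 6.69 CPM in any library. B cell markers summed to at most 3.0 CPM and neutrophil markers to at most 7.31 CPM. Of the 3 neutrophil markers, Ly6g had 3, 1 and 0 counts on MCS, 0 in the MCD libraries, and was not tested. S100a8 and S100a9 did not pass (1.06 ± 0.63 and 1.39 ± 0.68, adjusted p = 0.244 and 0.164). In such bulk samples fewer cells of a type and less RNA per cell cannot be told apart.

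Of the 10 genes 9 passed the filter on low counts. Of these, 1 rose, Chka, and 1 fell, Chkb, and 7 did not pass, so the share called in each direction was near that of all tested genes. A gene that did not pass is not shown to be unchanged. In simulated counts the test recovered 2 of 50 genes changed 1.5-fold and 21 of 50 changed 2-fold. The simulation changed 50 of 12599 genes at each fold, a far smaller share than the 24.7% called here. Its threshold after adjustment was therefore stricter, and its recovery need not hold for the real fit. For 7 of the 9 genes the 3 levels of one diet lay apart from those of the other, 2 higher and 5 lower on MCD, where 45.3% of all tested genes did not overlap, 23.9% higher and 21.3% lower. The median log2 fold change of the 9 genes was −0.34, beside 0.01 for all tested genes and −0.69 for the 10 hepatocyte markers.

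**Figure D1:**
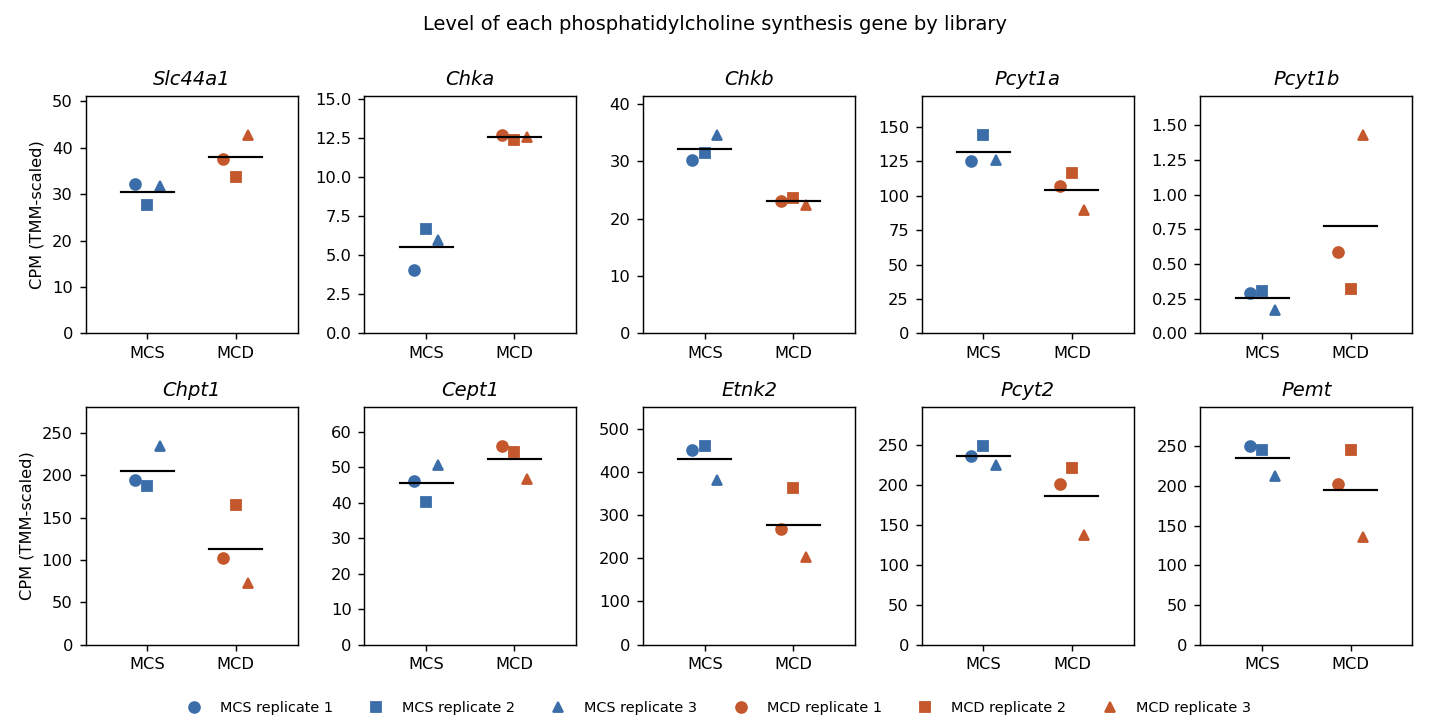
Level of each of the 10 genes (vertical axis, CPM at the TMM-scaled library size, from 0) in the 3 MCS and 3 MCD libraries; points are libraries, their shape gives the replicate and the bar is the mean of a diet. Chka sits between 4.03 and 6.65 CPM in the MCS and between 12.4 and 12.7 CPM in the MCD libraries, while Pemt and Cept1 overlap between the diets.

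Choline enters the cell through Slc44a1 (ENSMUSG00000028412), a choline transporter of the plasma membrane and mitochondria. Its 3 levels were 32.2, 27.7 and 31.8 CPM on MCS and 37.5, 33.7 and 42.7 CPM on MCD. Every MCD library was above every MCS library, yet the change did not pass (0.31 ± 0.14, adjusted p = 0.127). With library size alone, a scaling under which the median of all genes moves to 0.57, Slc44a1 passed (0.88, adjusted p = 0.0143). The authors' deposited table, whose fold changes are ratios of mean TPM, a level per transcript length, gives 1.02 with a false discovery rate of 0.00919. The median of the same column of the authors' deposited table over the genes tested here is 0.69.

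The choline kinases Chka (ENSMUSG00000024843) and Chkb (ENSMUSG00000022617) carry out the first step, the phosphorylation of choline. Chka, the paralog that is inducible in many cells, was at 4.03, 6.65 and 5.96 CPM on MCS and 12.7, 12.4 and 12.6 CPM on MCD. The diets did not overlap. Chka rose 2.27-fold, from 5.54 ± 1.36 to 12.6 ± 0.143 CPM (1.18 ± 0.22, adjusted p = 0.00706, 95% interval 0.69 to 1.68). It passed in each of the 16 other settings tried, with log2 fold changes of 0.99 to 1.88, the lowest without MCS-1 and the highest on log2(TPM + 0.1). The spread of Chka among the MCD libraries depended on the scale. With TMM scaling it lay within 12.4 to 12.7 CPM, while by TPM it was at 12.0, 9.20 and 15.1, against 2.66, 3.35 and 3.51 on MCS. By TPM Chka was thus highest in MCD-3 and lowest in MCD-2, as were Slc44a1, Chkb, Pcyt1a and Cept1. The summed macrophage, stellate cell, cholangiocyte and dividing cell markers had that order in CPM, the scale on which Chka was nearly level. Whether cells other than hepatocytes account for part of the higher Chka level was not tested.

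Chkb moved the other way on the same scale. It was at 30.3, 31.5 and 34.6 CPM on MCS and 23.1, 23.7 and 22.3 CPM on MCD, without overlap. Chkb fell from 32.1 ± 2.2 to 23.0 ± 0.693 CPM (−0.48 ± 0.12, adjusted p = 0.0219). This call was not stable: it ended without MCS-1, MCS-2, MCS-3 or MCD-1 (adjusted p = 0.0602 to 0.0869). Those fits called 1347 to 2329 of all tested genes, against 3117 in the main edgeR fit. With library size alone the log2 fold change was 0.07 (adjusted p = 0.729), and scaled to the summed hepatocyte markers it was −0.07 (adjusted p = 0.851). In the GENCODE M21 annotation (GRCm38) the gene Gm44502 lies on the same strand and shares 1552 of the 3061 exonic bases of Chkb, and 47.9% of the 31-base words in Chkb transcripts also occur in other genes. Gm44502 had 22, 20 and 24 counts on MCS and 86, 62 and 68 on MCD, and rose (1.14 ± 0.36, adjusted p = 0.0464). The counting could therefore divide reads between them, and the summed pair did not pass (−0.36 ± 0.12, adjusted p = 0.0572). For the other 9 genes at most 4.88% of such words occur elsewhere.

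The ratio of paralogs within a library does not depend on how libraries are scaled. By TPM, Chka made up 8.97%, 11.2% and 10.1% of the summed choline kinase transcripts on MCS and 26.7%, 25.3% and 28.1% on MCD. Chkb was thus the more abundant kinase transcript in all 6 libraries, and the Chka share was higher in every MCD library. The log2 ratio of counts of Chka to Chkb was higher by 1.69 on MCD, a 3.22-fold shift of the ratio (two-sided exact permutation p = 0.1, the smallest that 3 against 3 libraries allows, and 0.167 after Benjamini-Hochberg adjustment over 5 ratios). It was 1.52 to 1.85 with 1 library left out in turn and 1.57 with Gm44502 added to Chkb.

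The second step, transfer of the cytidyl group to phosphocholine, limits the rate of the pathway in most settings and is carried out by Pcyt1a (ENSMUSG00000005615) and its paralog Pcyt1b (ENSMUSG00000035246). Pcyt1a was at 125, 144 and 126 CPM on MCS and 107, 116 and 89.3 CPM on MCD. The diets did not overlap, but the difference did not pass (−0.34 ± 0.16, adjusted p = 0.143, 95% interval −0.69 to 0.02). Its direction depended on the scaling, with 0.20 by library size alone and 0.03 relative to the hepatocyte markers (adjusted p = 0.176 and 0.930). Pcyt1b, known mainly from brain and gonads, was at the edge of detection and was not tested. It had 5, 4 and 3 counts on MCS and 13, 7 and 41 counts on MCD. The floor of 3 counts corresponds to 0.104 to 0.227 CPM, and the mean level was 0.252 ± 0.0751 CPM on MCS and 0.776 ± 0.580 CPM on MCD. MCD-3, which held most of the Pcyt1b counts, was also highest for the summed macrophage, stellate cell and cholangiocyte markers, and their part in the Pcyt1b counts was not tested. Pcyt1a supplied at least 98.5% of the summed TPM of the pair in every library. The log2 ratio of Pcyt1a to Pcyt1b counts, with 0.5 added to each count, differed by −1.62 on MCD (exact permutation p = 0.1) and ranged from −2.2 to −0.96 with 1 library left out, the smaller change without MCD-3.

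The sequences upstream of 3 of the genes are shown because they represent the kinase that rose, the rate-limiting step and the most abundant transcript of the ethanolamine branch among those lower in every MCD library. Each is the 250 bases before the outermost RefSeq start on GRCm38.p6, written 5′ to 3′ along the strand of the gene, and the windows hold no annotated exon of GENCODE M21. The Chka window is chr19:3851523-3851772 on the plus strand, that of Pcyt1a is chr16:32430671-32430920 on the plus strand and that of Etnk2 is chr1:133363322-133363571 on the plus strand. Capitals mark matches, on either strand, to any of 8 motifs. The GC box was searched as GGGCGG and the CCAAT box by the letters of its name. The TATA box was searched as TATAAA. The E-box was searched as CACGTG. The AP-1 site was searched as TGANTCA, where N is any base. The sterol regulatory element was searched as TCACNCCAC. For the cAMP response element the letters were TGACGTCA. For the ATF4 element they were TGATGNAA.
Chka: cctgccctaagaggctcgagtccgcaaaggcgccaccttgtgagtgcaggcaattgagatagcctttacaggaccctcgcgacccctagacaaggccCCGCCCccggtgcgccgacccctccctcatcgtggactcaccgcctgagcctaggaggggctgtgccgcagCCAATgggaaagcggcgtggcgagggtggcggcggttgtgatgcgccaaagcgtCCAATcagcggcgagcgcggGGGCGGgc
Pcyt1a: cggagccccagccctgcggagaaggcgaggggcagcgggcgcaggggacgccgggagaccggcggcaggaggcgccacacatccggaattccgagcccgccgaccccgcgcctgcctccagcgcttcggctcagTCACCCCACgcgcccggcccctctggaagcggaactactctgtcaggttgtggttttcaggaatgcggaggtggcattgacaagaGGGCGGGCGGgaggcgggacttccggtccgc
Etnk2: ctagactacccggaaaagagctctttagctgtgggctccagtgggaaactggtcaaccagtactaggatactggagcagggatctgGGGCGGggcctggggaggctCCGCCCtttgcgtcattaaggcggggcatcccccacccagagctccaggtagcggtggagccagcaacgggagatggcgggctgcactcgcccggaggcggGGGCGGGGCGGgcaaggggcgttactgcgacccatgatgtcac
The Chka window held 2 GC boxes and 2 CCAAT boxes, motifs found in 32.7% and 33.9% of all 32851 windows of this length. The Pcyt1a window held 2 overlapping GC boxes and 1 match to the sterol regulatory element, which 1.05% of all windows hold. The Etnk2 window held 4 GC boxes, the last 2 of which overlap. Among the 9 genes with an entry in the promoter table, all but Pcyt2, the sterol element matched in Pcyt1a alone, and the AP-1, cAMP, ATF4 and E-box motifs matched in 0. A match describes the letters and is not evidence of a bound factor.

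The last step of the pathway joins CDP-choline to diacylglycerol. Chpt1 (ENSMUSG00000060002), a choline phosphotransferase of the Golgi, was at 194, 187 and 234 CPM on MCS and 102, 165 and 72.5 CPM on MCD. All MCD libraries were below all MCS libraries, and MCD-2 was the nearest to them. The change was close to the threshold but did not pass (−0.86 ± 0.28, adjusted p = 0.0539). It passed with DESeq2 (−0.87, adjusted p = 0.0132) and without MCD-2 (−1.26, adjusted p = 0.00199). Those settings called 3783 and 4435 of all tested genes, against 3117 in the main edgeR fit. Cept1 (ENSMUSG00000040774), which accepts CDP-choline and CDP-ethanolamine in the endoplasmic reticulum, was at 46.0, 40.2 and 50.5 CPM on MCS and 55.9, 54.2 and 46.8 CPM on MCD. The diets overlapped and Cept1 did not pass (0.20 ± 0.14, adjusted p = 0.325), although it passed with library size alone (0.74, adjusted p = 0.00952). In the authors' deposited table Cept1 has a log2 fold change of 0.71 and a false discovery rate of 0.0171, and Chpt1 has −0.38 and 0.399.

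Chpt1 and Cept1 were also compared as a ratio within each library. By TPM, Chpt1 supplied 79.4%, 81.4% and 80.5% of the summed transcripts of the pair on MCS and 63.8%, 75.0% and 56.4% on MCD. The share was lower in each MCD library than in any MCS library, and lowest in MCD-3. The log2 ratio of counts differed by −1.13 on MCD, a 2.19-fold lower ratio (exact permutation p = 0.1, adjusted 0.167 over 5 ratios), and was −1.42 to −0.93 with 1 library left out. Cept1 overlaps exons of Dennd2d on the opposite strand over 771 of its 3116 exonic bases, and Chpt1 overlaps Sycp3 over 660 of 8324. The sources used here do not say whether strand was kept, so reads from such overlaps cannot be told apart. Sycp3 had at most 2 counts in a library, and Dennd2d had 94 to 316.

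**Figure D2:**
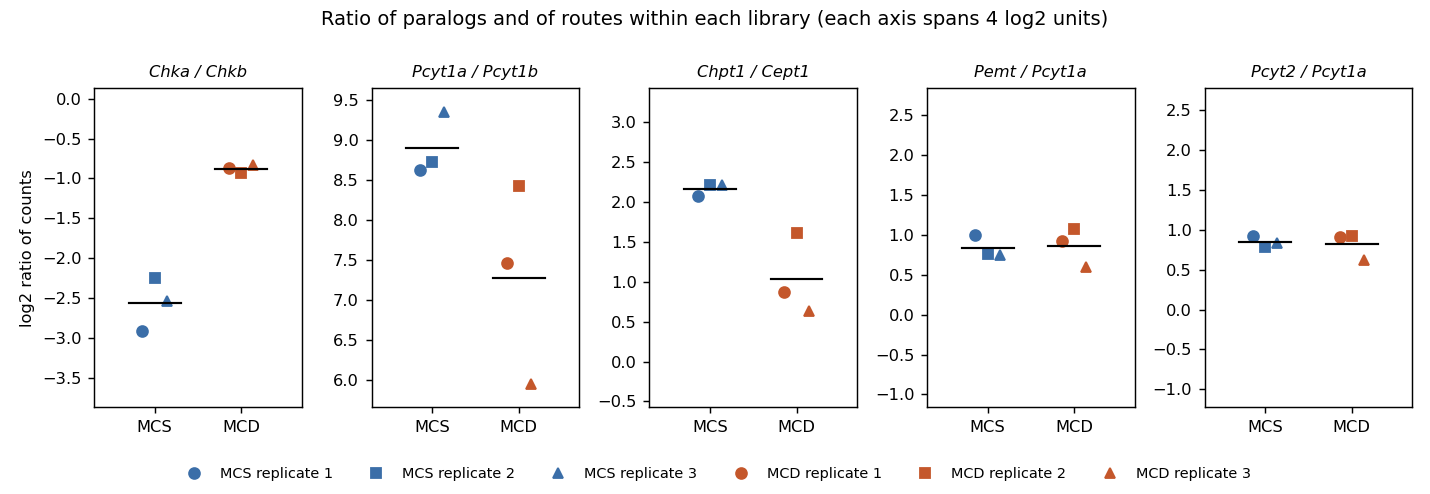
Log2 ratio of the counts of 2 genes within each library (vertical axes, each spanning 4 log2 units, not from 0) for 3 pairs of paralogs and 2 pairs of routes; points are libraries and bars are means of a diet. The ratio of Chka to Chkb lies between −2.91 and −2.24 in the MCS and between −0.94 and −0.83 in the MCD libraries, while the ratios of Pemt and of Pcyt2 to Pcyt1a overlap between the diets.

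The CDP-ethanolamine branch makes the substrate that Pemt methylates. Etnk2 (ENSMUSG00000070644), a liver-enriched ethanolamine kinase, was at 451, 459 and 382 CPM on MCS and 267, 362 and 204 CPM on MCD. The diets did not overlap, and the change did not pass (−0.63 ± 0.24, adjusted p = 0.0802). It passed without MCD-2 (−0.90, adjusted p = 0.0115) and with DESeq2 (−0.64, adjusted p = 0.0214), and it was −0.11 with library size alone (adjusted p = 0.532). Etnk2 passed in 4 settings in all, the others being a replicate block and the fit without both replicate 3 libraries. Each of the 4 called more of all tested genes than the main edgeR fit (4435, 3783, 3283 and 3364 against 3117). Pcyt2 (ENSMUSG00000025137), the cytidyl transferase for phosphoethanolamine, was at 237, 249 and 225 CPM on MCS and 201, 221 and 137 CPM on MCD. These levels did not overlap, by a narrow margin between MCS-3 and MCD-2. Pcyt2 did not pass (−0.35 ± 0.20, adjusted p = 0.237) and its log2 fold change was 0.18 with library size alone (adjusted p = 0.283).

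Pemt (ENSMUSG00000000301), which methylates phosphatidylethanolamine stepwise to phosphatidylcholine, was at 250, 245 and 212 CPM on MCS. On MCD it was at 202, 246 and 135 CPM, so that MCD-2 lay among the MCS libraries. Pemt did not pass (−0.28 ± 0.23, adjusted p = 0.395, 95% interval −0.79 to 0.24), and the sign turned with library size alone (0.24, adjusted p = 0.208) and relative to the hepatocyte markers (0.04, adjusted p = 0.895). The balance of the methylation route against the CDP-choline route, as the log2 ratio of Pemt to Pcyt1a counts, was 0.84 ± 0.14 on MCS and 0.86 ± 0.24 on MCD. Its difference of 0.03 was smaller than the spread within either diet (exact permutation p = 1.0) and ran from −0.08 to 0.16 with 1 library left out. The log2 ratio of Pcyt2 to Pcyt1a was 0.85 ± 0.07 and 0.82 ± 0.17, a difference of −0.03 (exact permutation p = 0.9; −0.08 to 0.07 with 1 library left out). Neither p shows that the ratios were the same.

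The order of the MCD libraries was alike for most genes with TMM scaling, but not by TPM. With TMM scaling 7 of the 9 tested genes were lowest in MCD-3, and 6 of the 9 (Chkb, Pcyt1a, Chpt1, Etnk2, Pcyt2 and Pemt) were highest in MCD-2. The summed hepatocyte markers had the same order, with 57936 CPM in MCD-3 and 96194 CPM in MCD-2, as did each marker but Apob and Tat. The part of hepatocytes in the levels of these genes was not tested. By TPM only 4 genes (Chpt1, Etnk2, Pcyt2 and Pemt) were lowest in MCD-3, while 5 (Slc44a1, Chka, Chkb, Pcyt1a and Cept1) were highest there and lowest in MCD-2. The TMM factor was itself highest in MCD-3 (1.41) and lowest in MCD-2 (1.04) among the MCD libraries. Relative to those hepatocyte markers, the log2 fold changes of Pcyt1a, Pcyt2 and Pemt were 0.03, −0.00 and 0.04, those of Chpt1 and Etnk2 were −0.53 and −0.31, and none of these 5 passed (adjusted p = 0.0727 to 0.991). Chka passed on that scale too (1.60, adjusted p = 0.0121). Of those 10 markers 3 themselves fell, which moves this scale. Alb, the largest part of the sum, weighs most in it.

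**Figure D3:**
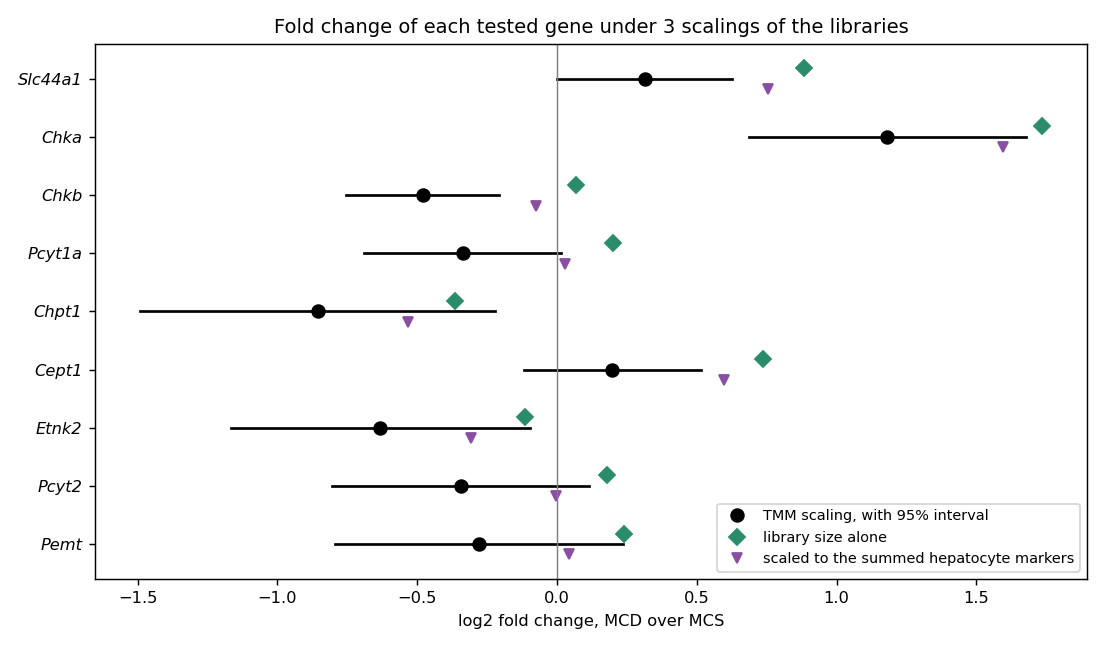
Log2 fold change of MCD over MCS (horizontal axis) of the 9 tested genes with TMM scaling (black points, bars are 95% intervals), with library size alone (diamonds) and relative to the summed hepatocyte markers (triangles). Chka is above 0 and Chpt1 below 0 on all 3 scales, while Chkb, Pcyt1a, Pcyt2 and Pemt lie on different sides of 0 on different scales.

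Per transcript length, the order of the 10 transcripts was led by Pemt on both diets, at 321 ± 15.2 TPM on MCS and 411 ± 53.5 TPM on MCD. Etnk2 followed at 256 ± 13.9 and 257 ± 28.5 TPM, then Pcyt2 at 174 ± 1.88 and 216 ± 20.7 TPM and Chpt1 at 159 ± 29.8 and 123 ± 37.2 TPM. Pcyt2 and Chpt1 overlapped on MCS, and Etnk2 and Pcyt2 on MCD. Pcyt1a and Cept1 overlapped on MCS (39.0 ± 2.74 and 38.8 ± 7.53 TPM) but separate on MCD, where Cept1 was above Pcyt1a in every library (63.3 ± 7.96 and 47.7 ± 2.83 TPM). Chkb (28.3 ± 2.61 and 32.9 ± 5.82 TPM), Slc44a1 (10.7 ± 1.13 and 21.6 ± 5.81 TPM) and Chka (3.17 ± 0.454 and 12.1 ± 2.96 TPM) were lower, and Chkb and Slc44a1 overlapped on MCD. Pcyt1b was the lowest transcript on both diets (0.0703 ± 0.0185 and 0.379 ± 0.336 TPM). TPM values between the diets carry the shift of 0.69 given above and are set side by side here only to order the genes.

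A further 59 genes of choline and phospholipid metabolism, in 8 lists, were read from the same fit. Of the 53 tested, 5 rose, 3 fell and 45 did not pass, against 14.8% and 9.97% of all tested genes, and their median log2 fold change was −0.26. With library size alone 21 of them rose. Beside Slc44a1, 2 of 7 tested transport genes rose and 0 fell (median 0.49). Flvcr1 (ENSMUSG00000066595), a choline and ethanolamine transporter of the plasma membrane, was at 1.96, 1.89 and 1.60 CPM on MCS and 5.26, 5.97 and 11.7 CPM on MCD. Flvcr1 rose (2.08 ± 0.36, adjusted p = 0.00548), without overlap, and passed with each library left out in turn (1.63 to 2.29). Slc44a4 (ENSMUSG00000007034), a choline transporter-like protein of epithelia, rose from 0.226 ± 0.00478 to 1.25 ± 0.429 CPM (2.44 ± 0.55, adjusted p = 0.0147), a level near the floor of 3 counts on MCS. Slc44a4 did not pass without MCS-1, MCS-2 or MCD-1 (adjusted p = 0.0586 to 0.0660). Like the summed cholangiocyte, macrophage and stellate cell markers, both genes were highest in MCD-3. Among the MCD libraries Slc44a4 was lowest in MCD-2, as those sums were, while Flvcr1 was lowest in MCD-1. The part of those cells was not tested.

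Of the genes that supply or precede the phosphatidylcholine pathway, 1 passed. Neither the other ethanolamine kinase Etnk1 (64.0 ± 8.0 against 53.0 ± 2.40 CPM, adjusted p = 0.173) nor Selenoi, an ethanolamine phosphotransferase, passed (0 of 2). In the phosphatidylserine route, an alternative source of phosphatidylethanolamine, 0 of 3 passed, with Ptdss1, the phosphatidylserine synthase that uses phosphatidylcholine, at 61.2 ± 5.88 against 47.9 ± 9.09 CPM (adjusted p = 0.147). For the 9 genes of diacylglycerol and CDP-diacylglycerol supply, 1 fell and 0 rose (median −0.12). That gene was Agpat2 (ENSMUSG00000026922), an acyltransferase that makes phosphatidic acid, at 219, 220 and 231 CPM on MCS and 102, 151 and 67.1 CPM on MCD. Agpat2 fell (−1.07 ± 0.27, adjusted p = 0.0216), but not without MCS-1, MCS-2, MCS-3 or MCD-1 (adjusted p = 0.0564 to 0.0816).

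Acyl remodelling enzymes, which exchange the fatty acids of finished phosphatidylcholine, had 2 rises among 5 tested (median 1.47). Lpcat2 (ENSMUSG00000033192) and Lpcat1 (ENSMUSG00000021608), lysophosphatidylcholine acyltransferases, rose from 3.83 ± 1.83 to 10.7 ± 4.43 CPM and from 2.51 ± 1.16 to 7.09 ± 3.51 CPM (1.47 ± 0.40 and 1.49 ± 0.45, adjusted p = 0.0280 and 0.0398). Neither passed without MCS-1, MCS-2, MCD-1 or MCD-3 (adjusted p = 0.0612 to 0.132), nor by limma-voom (adjusted p = 0.0506 and 0.0845). Both were highest in MCD-3 (15.6 and 10.9 CPM). Among the MCD libraries the macrophage, Kupffer cell, stellate cell, endothelial and cholangiocyte sums were also highest in MCD-3. Among the MCS libraries Lpcat2 and Lpcat1 were highest in MCS-3 (5.90 and 3.81 CPM). There the stellate cell (283 CPM), endothelial (290 CPM) and Kupffer cell sums (380 CPM) were highest and the cholangiocyte sum (7.12 CPM) was lowest. The macrophage sum was level in the MCS libraries, at 158 to 159 CPM. The part of these cells was not tested.

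For phosphatidylcholine breakdown and choline release, 1 of 16 tested genes rose and 1 fell (median −0.26). Pnpla7 (ENSMUSG00000036833), a lysophospholipase of the liver that feeds glycerophosphocholine formation, was at 196, 184 and 144 CPM on MCS and 92.5, 94.5 and 77.5 CPM on MCD. Pnpla7 fell (−0.99 ± 0.17, adjusted p = 0.00545) and passed with each library left out, but not relative to the hepatocyte markers (−0.63, adjusted p = 0.0971). Gdpd1 (ENSMUSG00000061666), a lysophospholipase D-type glycerophosphodiesterase, rose from 0.543 ± 0.200 to 2.44 ± 0.822 CPM (2.15 ± 0.48, adjusted p = 0.0143), and did not pass without MCS-1, MCS-2 or MCD-1 (adjusted p = 0.0514 to 0.0630). Gdpd1 was at 2.34, 1.67 and 3.31 CPM on MCD, highest in MCD-3 and lowest in MCD-2 like the macrophage, stellate cell and cholangiocyte markers, whose part was not tested.

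Choline oxidation and betaine use turns choline into methyl donors. Of its 6 genes 1 fell and 5 did not pass, all with negative log2 fold changes under TMM scaling (median −0.57). On the same scale all 10 hepatocyte markers were negative (median −0.69), as were 6171 of the 12599 tested genes. Sardh (ENSMUSG00000009614), the mitochondrial sarcosine dehydrogenase, was at 1335, 1460 and 1941 CPM on MCS and 682, 999 and 440 CPM on MCD. Sardh fell (−1.16 ± 0.32, adjusted p = 0.0318), but not without MCS-1, MCS-2, MCS-3 or MCD-1 (adjusted p = 0.0739 to 0.116), nor with library size alone (−0.67, adjusted p = 0.0577). In the authors' deposited table Sardh and Aldh7a1 had log2 fold changes of −0.61 and −0.07. Those of Chdh, Bhmt, Bhmt2 and Dmgdh were 0.14, 0.13, 0.04 and 0.06. Among 5 genes of phosphatidylcholine transfer and export 0 passed (median −0.49), with the lipid transfer protein Stard10 at 1181 ± 108 against 846 ± 248 CPM (adjusted p = 0.205).

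**Figure D4:**
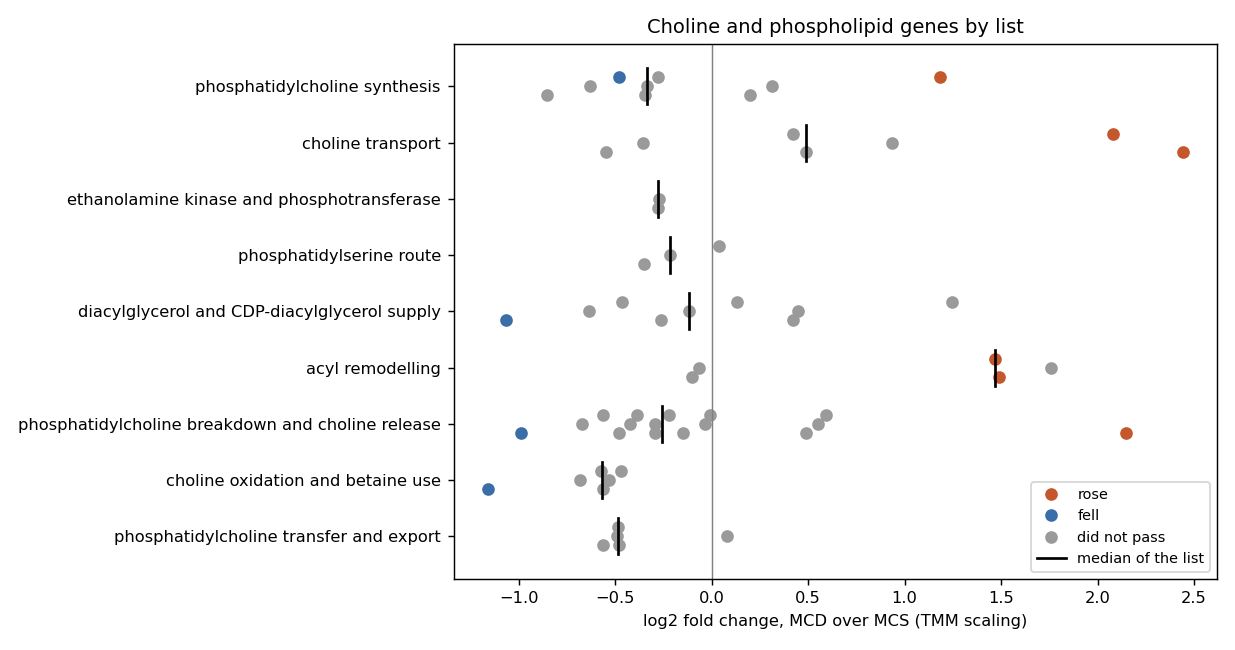
Log2 fold change of MCD over MCS with TMM scaling (horizontal axis) of the tested phosphatidylcholine synthesis genes and of the genes in the 8 further lists; each point is a gene, coloured by its call at adjusted p under 0.05, and black bars are list medians. The transport and remodelling lists have medians of 0.49 and 1.47, and the other 7 groups have medians below 0.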

How the data were processed

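Liver polyA RNA libraries were grouped by the diet in their titles. The submitters' processing notes name GRCm39, RSEM, StringTie 1.3.1, HISAT2 2.1.0, Bowtie2 2.2.8 and fastp 0.18.0, without their roles. The authors deposited, per gene and library, a count and a TPM value, and for the comparison their mean TPM, log2 fold change, p-value and FDR; the sources used here do not name the test behind them. The deposited counts are whole, but 64 values of 0 have a TPM above 0. They were taken as rounded expected counts, in which reads shared by overlapping genes may have been divided.

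Counts were tested with edgeR 4.0.16 in R 4.3.3: filterByExpr with a minimum count of 10, TMM, a robust quasi-likelihood fit over 12599 genes with diet as its only term, and Benjamini-Hochberg adjustment. SE is the log2 fold change over root F. Alternatives used limma 3.58.1 and DESeq2 1.42.0. Ratios were compared by two-sided exact permutation. All 10 genes are described. From each further list the called genes with the smallest p are named (up to 2 per direction), or, with none called, the most abundant gene. Selenoi, Gm44502, Cpt1b, Dennd2d, Sycp3, Lpcat3, Mboat7, S100a8, S100a9, Chdh, Aldh7a1, Bhmt, Bhmt2 and Dmgdh were added after their values were seen. The members and lists were chosen with earlier results of these data known. Every replicate pair differed by more than sampling noise (chi-square over its degrees of freedom 14.0 to 158). The scripts were tested on simulated data. Sequences upstream of genes are from RefSeq on GRCm38.p6, a build other than that of the files, and 9 of 10 genes matched. Floors cover counting error only.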

Additional observations from a re-analysis of the deposited data

How the results depend on the processing

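Chka passed in all 16 other settings. The count of members that rose was 3 with library size alone and on log2(TPM + 1) and log2(TPM + 0.1), and 1 with each library left out. The count that fell was 0 with library size alone, on both TPM scales, relative to the hepatocyte markers, with Gm44502 added to Chkb and at adjusted p under 0.01, 3 with DESeq2, 2 without both replicate 3 libraries, and 0 to 3 with 1 library left out (0 without MCS-1, 2 or 3 or MCD-1, and 3 without MCD-2). Further pathway genes that rose numbered 21 with library size alone, 22 on both TPM scales, 3 by limma-voom, 9 without both replicate 3 libraries, 1 at adjusted p under 0.01 and 1 to 10 with 1 library left out. Those that fell numbered 8 with DESeq2, 1 on log2(TPM + 1), 10 without both replicate 3 libraries, 1 at adjusted p under 0.01 and 1 to 15 with 1 library left out. For both counts the lowest came without MCS-1, MCS-2 or MCD-1, the highest came without MCD-2, and 3 rose without MCD-3. The number called among all 12599 to 13108 tested genes moved with the setting too. It was 1379, 1347, 2329 and 1472 without MCS-1, MCS-2, MCS-3 and MCD-1. Without MCD-2 it was 4435, without MCD-3 2506 and with DESeq2 3783, against 3117 in the main edgeR fit. The cause of these shifts was not tested.

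Signs turned for 7 genes, Chkb among them. With library size alone, on log2(TPM + 1) and on log2(TPM + 0.1), the log2 fold changes were 0.067, 0.20 and 0.21 for Chkb, 0.20, 0.28 and 0.29 for Pcyt1a, 0.18, 0.31 and 0.31 for Pcyt2, 0.24, 0.35 and 0.35 for Pemt, 0.29, 0.38 and 0.40 for Etnk1, 0.18, 0.29 and 0.30 for Ptdss1 and 0.027, 0.15 and 0.15 for Stard10. Relative to the hepatocyte markers Pcyt1a, Pemt and Etnk1 were at 0.030, 0.044 and 0.13. All genes shift with these scales: the median of tested genes was 0.57, 0.53 and 0.65 on the first 3 and 0.42 on the last. With library size alone 5095 of 5443 calls were upward, against 1861 of 3117 with TMM. The ratio of Pemt to Pcyt1a turned to −0.011, −0.017, −0.0012 and −0.081 without MCS-2, MCS-3, MCD-1 and MCD-2. That of Pcyt2 to Pcyt1a turned to 0.016 by TPM, 0.0072 without MCS-1 and 0.070 without MCD-3. Over leave-one-out the ratios ran from 1.52 to 1.85 (Chka to Chkb), −2.2 to −0.96 (Pcyt1a to Pcyt1b), −1.42 to −0.93 (Chpt1 to Cept1), −0.081 to 0.16 (Pemt to Pcyt1a) and −0.083 to 0.070 (Pcyt2 to Pcyt1a).

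With a replicate block 3 members fell (Chkb, Chpt1 and Etnk2, adjusted p = 0.0424, 0.0434 and 0.0491) and 3283 of all genes were called. Same-numbered libraries correlated at 0.06, 0.15 and 0.25 in their deviations from the diet means, and MCS-1 correlated best with MCD-2 (0.13), so the numbers are not shown to pair the libraries. The hepatocyte scaling, the sum with Gm44502 and the fit without both replicate 3 libraries were chosen after seeing the data. Depth limits Pcyt1b and Slc44a4, whose counts were near the floor of 3.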

Other observations

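Gm44502, whose exons join those of Chkb on the same strand, was also compared with the neighbouring muscle-type carnitine palmitoyltransferase gene Cpt1b. Gm44502 rose from 1.37 ± 0.128 to 3.01 ± 0.771 CPM (1.14 ± 0.36, adjusted p = 0.0464, edgeR). Cpt1b had 95, 100 and 60 counts in MCS-1 to MCS-3 and 70, 113 and 81 in MCD-1 to MCD-3, and did not pass (−0.56 ± 0.37, adjusted p = 0.296). Both were chosen after their values were seen.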
